A study of Mus musculus with 27 samples.

Results

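The renin-angiotensin system was followed here through 7 genes, chosen by name from the known pathway: Agt, which encodes the precursor, Ren1, Ace and Enpep, which encode enzymes that cut it or the peptides made from it, and Agtr1a, Agtr2 and Mas1, which encode receptors. Of these 7 genes, 6 had a named probe set among the 18194 genes measured, and Ren1 was not analysed here. The lungs came from female mice of the strains CBA/J, C57L/J and C57BL/6J, aged 10 to 12 weeks, 24 h after sham exposure (0 Gy) or whole thorax lung irradiation (WTLI) with 12.5 or 15 Gy of X rays, with 3 mice per strain and dose. The labels describe the later lung disease of irradiated mice as pneumonitis alone for CBA/J, mixed pneumonitis and fibrosis for C57L/J, and fibrosis with mild pneumonitis for C57BL/6J, and the study calls C57L/J radiation sensitive and C57BL/6J radiation resistant. RNA of the right upper lobe of each mouse was hybridized to 1 Affymetrix mouse genome array, so the 27 arrays are 27 mice and none were pooled. The CBA strain labels carry a different prefix for each replicate, whose meaning is not given. Each value below is a deposited intensity, scaled so that the 2% trimmed mean of every array is 500, and each gene is read by its brightest probe set. Levels are compared between mice for 1 gene at a time and never between genes, because probe sets differ in brightness.

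Renin cuts angiotensinogen to angiotensin I, and angiotensin-converting enzyme, which lines the surface of endothelial cells and is abundant in lung capillaries, converts this to angiotensin II and also breaks down bradykinin. Angiotensin II acts through the type 1 receptor to constrict vessels and through the type 2 receptor, which often opposes it, while the Mas receptor answers to a shorter angiotensin peptide and also counters the type 1 receptor. Inhibitors of the converting enzyme and blockers of the type 1 receptor are known to lessen radiation injury of the lung in rodents.

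The members fell into a bright and a dim set, and this decides what the arrays could measure. Ace, Enpep and Agtr1a had intensities of at least 337 on all 27 arrays. Mas1 was below an intensity of 32, a level often taken as background on these arrays, on 4 of 27 arrays, Agt on 17 and Agtr2 on 25. Ratios of Agt and Agtr2 are therefore mostly ratios between values at background, and many are also given with a floor of 32. Log2 changes below are of intensities floored at 1 unless a floor of 32 is named.

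The 150 bases before the RefSeq start are shown for 5 of the measured members, all but Agtr1a, and for the 3 genes outside the set that changed after WTLI (mouse build GRCm38.p6), since all of these are read as transcript levels. Capitals mark a TATA box, spelled TATAAA, a GC box, spelled GGGCGG, and a CCAAT box, each on either strand. Among 32851 windows of this length, the TATA box was found in 7.57%, the GC box in 28.6% and the CCAAT box in 24.5%. A match is a description of the letters and not of a site in use.
Agt, chr8:124569707-124569856, minus strand: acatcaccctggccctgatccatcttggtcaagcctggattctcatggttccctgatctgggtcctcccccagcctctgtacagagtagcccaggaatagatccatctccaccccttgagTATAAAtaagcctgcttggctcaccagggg
Ace, first start, chr11:105967798-105967947, plus strand: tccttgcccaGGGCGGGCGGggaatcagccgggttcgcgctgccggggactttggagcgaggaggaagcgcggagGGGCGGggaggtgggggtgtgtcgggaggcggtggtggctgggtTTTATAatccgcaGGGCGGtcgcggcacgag
Enpep, chr3:129332750-129332899, minus strand: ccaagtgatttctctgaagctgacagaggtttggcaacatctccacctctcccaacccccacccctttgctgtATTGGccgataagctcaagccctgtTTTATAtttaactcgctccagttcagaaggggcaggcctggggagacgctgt
Agtr2, chrX:21484474-21484623, plus strand: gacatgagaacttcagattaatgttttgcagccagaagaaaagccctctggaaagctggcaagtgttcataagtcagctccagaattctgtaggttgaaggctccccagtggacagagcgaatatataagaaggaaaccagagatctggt
Mas1, chr17:12868144-12868293, minus strand: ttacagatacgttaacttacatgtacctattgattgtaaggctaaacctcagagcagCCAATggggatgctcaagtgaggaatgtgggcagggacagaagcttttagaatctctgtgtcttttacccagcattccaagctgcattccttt
Ctsd, chr7:142387828-142387977, minus strand: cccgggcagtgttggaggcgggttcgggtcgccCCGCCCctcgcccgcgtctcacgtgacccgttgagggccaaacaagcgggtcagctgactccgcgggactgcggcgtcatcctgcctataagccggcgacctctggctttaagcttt
Prcp, chr7:92875103-92875252, plus strand: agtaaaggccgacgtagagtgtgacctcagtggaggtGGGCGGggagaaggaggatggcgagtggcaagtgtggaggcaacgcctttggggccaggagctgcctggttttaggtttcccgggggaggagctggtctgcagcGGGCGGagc
Agtrap, chr4:148088065-148088214, minus strand: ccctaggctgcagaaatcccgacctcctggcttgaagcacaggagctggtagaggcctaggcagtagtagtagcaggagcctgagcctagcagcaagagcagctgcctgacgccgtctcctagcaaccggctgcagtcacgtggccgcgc
The TATA box letters were in the windows of Agt, Ace and Enpep, those of the GC box in Ace, Ctsd and Prcp, and those of the CCAAT box in Enpep and Mas1. A second annotated start of Ace, whose window is not shown, held the CCAAT box. The windows of Agtr2 and Agtrap held none of the 3 motifs.

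The epithelial lung markers Sftpc, Ager and Scgb1a1 were bright, with a median log2 intensity over the arrays of 14.65 for Sftpc, 14.59 for Ager and 14.99 for Scgb1a1. Array medians lay between 127.6 and 167. On 9 of the 27 arrays a list of 10 skeletal muscle genes stood 2.55 to 8.51 log2 above the median array, against −0.83 to 0.25 on the other 18. These 9 arrays were CBA/J sham replicates 1 and 2, CBA/J 12.5 Gy replicates 2 and 3, C57L/J 15 Gy replicate 3, C57BL/6J 12.5 Gy replicates 1 and 2, and C57BL/6J 15 Gy replicates 2 and 3. The values without these arrays stand beside the changes over the 3 strains and beside the calls and differences within groups that hold them. Leaving them out kept replicate 3 alone in CBA/J sham and C57BL/6J 12.5 Gy, and replicate 1 alone in CBA/J 12.5 Gy and C57BL/6J 15 Gy. Values without the 9 arrays therefore rest on 1 mouse in those groups, with no spread of their own. In whole lung, fewer cells of a type and less RNA per cell cannot be told apart.

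**Figure D1:**
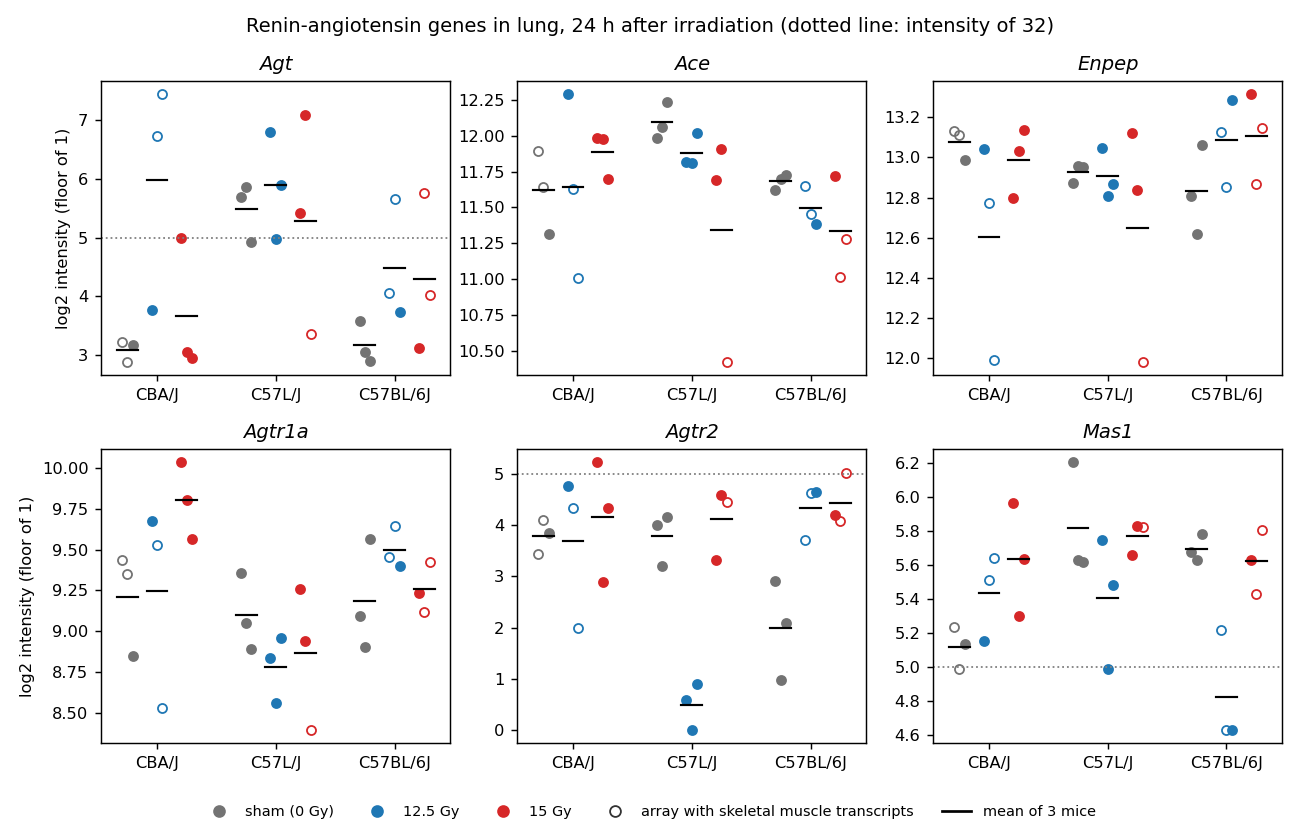
Log2 intensity (vertical axis) of the 6 measured members by strain and dose (horizontal axis), 1 point per mouse, with open points for the 9 arrays that held skeletal muscle transcripts, a bar for the mean of 3 mice and, for Agt, Agtr2 and Mas1, a dotted line at an intensity of 32. Ace, Enpep and Agtr1a lie far above an intensity of 32 on all 27 arrays, whereas 17 of 27 Agt values and 25 of 27 Agtr2 values lie below it.

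The first question was whether the members changed in lung 24 h after WTLI. Over the 3 strains, 0 of the 6 measured members passed in irradiated against sham lungs (limma with Benjamini-Hochberg adjustment over all genes), where 14.3% of all genes passed, and 1 of 6 (Agt) had an unadjusted p under 0.05, as 27.1% of genes did. The median log2 change was 0.01 for the members and −0.01 for all genes, and 3 of 6 members were higher. The count was also 0 of 6 at 12.5 Gy against sham, where 9.09% of all genes passed, and at 15 Gy against sham, where 11.7% did. At unadjusted p under 0.05 the counts were 2 of 6 at 12.5 Gy (Agt and Mas1), against 21.8% of genes, and 1 of 6 at 15 Gy (Agtr2), against 25.1%. No gene passed between 15 and 12.5 Gy over the 3 strains (0.0%). There 2 of 6 members, Agtr2 and Mas1, had an unadjusted p under 0.05, against 4.44% of genes. Both also had one under 0.01, against 0.78%. The Agtr2 change from 12.5 to 15 Gy was 3.63 log2 in C57L/J, 0.11 in C57BL/6J and 0.46 in CBA/J. It was thus largest in C57L/J, where the 12.5 Gy intensities were 0.66 to 1.85, below background. Over the 3 strains it was 1.40 log2, and 0.03 with intensities floored at the background level. The Mas1 change was 0.36, 0.80 and 0.20 log2 in the same strains. Against sham, an unadjusted p under 0.01 was found for 0 of 6 members in irradiated lungs (15.9% of genes). It was found for Agt at 12.5 Gy (11.9%) and for 0 of 6 at 15 Gy (14.1%).

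Within single strains 1 of 6 members passed in C57L/J at 12.5 Gy (0.511% of all genes) and 0 of 6 in each of the other 5 comparisons with sham, namely C57L/J at 15 Gy (0.0%), C57BL/6J at 12.5 Gy (0.528%) and 15 Gy (0.066%), and CBA/J at 12.5 Gy (0.033%) and 15 Gy (1.02%). The methods' random variance t test gave the same counts after adjustment. At the unadjusted p under 0.01 that the study used, limma counted Agtr2 in C57L/J at 12.5 Gy (4.52% of all genes), Agtr2 and Mas1 in C57BL/6J at 12.5 Gy (3.65%), and Agtr2 in C57BL/6J at 15 Gy (3.83%). The count was 0 in C57L/J at 15 Gy (1.85%) and in CBA/J at 12.5 Gy (3.25%) and 15 Gy (5.63%), where 0, 1 and 2 of 6 members had an unadjusted p under 0.05. Between 15 and 12.5 Gy it was 1 of 6 in C57L/J (Agtr2, with 0.643% of all genes) and 0 of 6 in C57BL/6J (0.566%) and CBA/J (1.26%).

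Agt, the precursor of all angiotensins, is made mainly in the liver and also in fat and other tissues. In CBA/J lungs its intensity was 9.26, 7.33 and 8.92 in sham mice, 13.5, 107 and 174 at 12.5 Gy, and 31.7, 8.26 and 7.71 at 15 Gy. In C57L/J lungs it was 51.7, 57.9 and 30.2 in sham mice, 112, 31.4 and 59.5 at 12.5 Gy, and 42.7, 137 and 10.2 at 15 Gy. In C57BL/6J lungs it was 11.9, 8.24 and 7.38 in sham mice, 16.5, 50.4 and 13.2 at 12.5 Gy, and 8.69, 54.0 and 16.1 at 15 Gy. Single mice reached over 100 in CBA/J and C57L/J, and 12 of 18 irradiated mice were above their strain's sham range, against 1 below it. The C57BL/6J value of 54.0 was on an array (15 Gy replicate 2) where the hepatocyte list stood 4.49 and the fat list 3.36 log2 above the median array, and the part of these in the value was not tested.

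Over the 3 strains Agt was 1.02 ± 0.47 log2 (± SE here and below; 95% interval 0.05 to 1.99) higher in irradiated than sham lungs, which did not pass (limma, adjusted p = 0.161). At 12.5 Gy the change was 1.54 ± 0.54 log2 (adjusted p = 0.0829). With the floor of 32 these changes were 0.43 (adjusted p = 0.328) and 0.67 (adjusted p = 0.209). The brightest CBA/J values, 107 and 174, came from arrays that held skeletal muscle transcripts, and without the 9 arrays the change was 0.46 log2 over both doses (adjusted p = 0.567) and 0.52 at 12.5 Gy (adjusted p = 0.663). Within strains, the 12.5 Gy group did not overlap sham in CBA/J (2.90 ± 0.95 log2, limma adjusted p = 0.395) and in C57BL/6J (1.31 ± 0.54 log2, adjusted p = 0.463). Of all genes, 18.8% did not overlap in the CBA/J comparison and 18.1% in the C57BL/6J one. These changes were 0.60 and 0.56 log2 without the arrays with muscle transcripts. In C57L/J the change was 0.40 ± 0.52 log2 at 12.5 Gy and −0.20 ± 0.94 at 15 Gy, and the groups overlapped. Leaving out 1 mouse moved them between −0.06 and 0.86 at 12.5 Gy and between −1.10 and 0.77 at 15 Gy, so that neither had a settled sign.

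With intensities floored at 1, Agt was the member that differed most between sham lungs of the 3 strains, while with the floor of 32 the group means of Agt spanned less than those of Mas1. All 3 C57L/J sham values were above all sham values of CBA/J and C57BL/6J. Of all genes, 24.3% did not overlap between CBA/J and C57L/J sham lungs and 15.1% between C57L/J and C57BL/6J. The means of Agt were 3.08 ± 0.18 log2 in CBA/J, 5.49 ± 0.50 in C57L/J and 3.16 ± 0.36 in C57BL/6J (SD, n = 3). Agt was 2.41 ± 0.28 log2 lower in CBA/J than in C57L/J sham lungs, the only member of 6 to pass there (limma, adjusted p = 0.0227), where 1.62% of all genes passed. The C57L/J against C57BL/6J sham difference, 2.32 ± 0.31 log2, did not pass (limma, adjusted p = 0.0999, with 0.181% of all genes passing), and CBA/J and C57BL/6J differed by −0.08 log2. The CBA/J against C57L/J call was lost with the floor of 32 (−0.52 log2, adjusted p = 0.349), without the arrays with muscle transcripts (−2.33 log2, adjusted p = 0.253), and when any 1 of the 3 CBA/J mice or of C57L/J replicates 1 and 2 was left out (limma, adjusted p 0.0741 to 0.101). It was kept without C57L/J sham replicate 3 (adjusted p = 0.0179), and the difference was −2.69 to −2.22 log2 over all 6 omissions.

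Over all doses Agt was 1.32 ± 0.54 log2 lower in CBA/J than in C57L/J (limma, adjusted p = 0.134) and 1.58 ± 0.54 higher in C57L/J than in C57BL/6J (adjusted p = 0.095). The lowest of the 9 C57L/J values, 10.2, was on the array of that strain with skeletal muscle transcripts. Without the 9 such arrays the differences were −2.35 log2 (adjusted p = 0.013) and 2.54 log2 (adjusted p = 0.0183). Without that C57L/J array alone (15 Gy replicate 3) they passed too (adjusted p = 0.0374 and 0.0276). With the floor of 32 they were −0.29 and 0.60 log2 and neither passed. The median intensity was 9.26 in CBA/J, 51.7 in C57L/J and 13.2 in C57BL/6J.

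**Figure D2:**
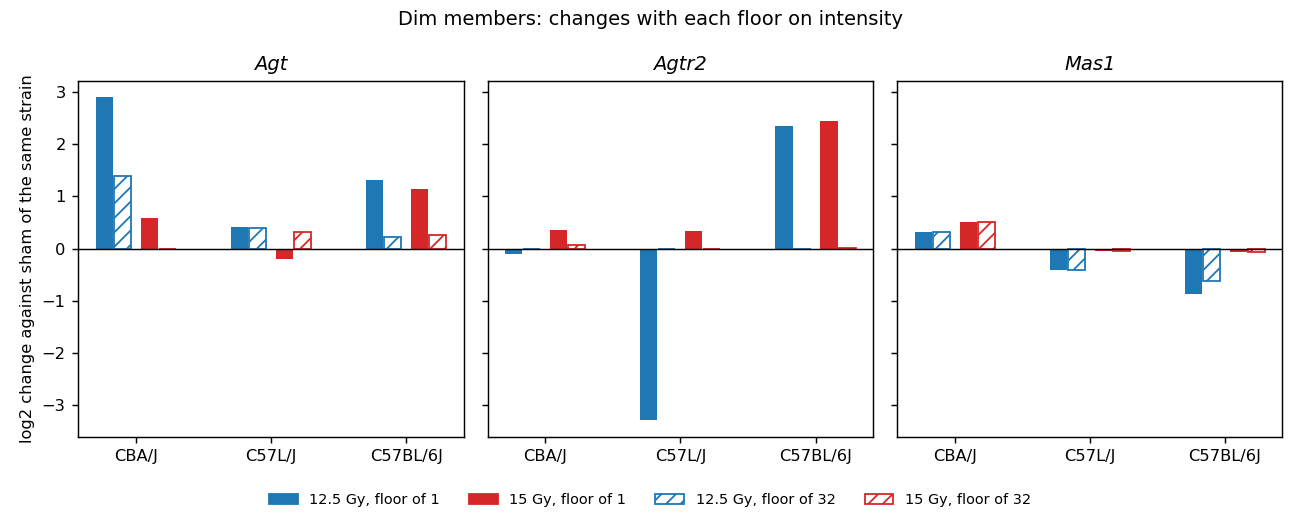
Log2 change from sham of the 3 dim members in each strain at 12.5 and 15 Gy, as bars from 0, solid with intensities floored at 1 and hatched with intensities floored at 32. The C57L/J change of Agtr2 at 12.5 Gy is −3.29 log2 with the lower floor and 0 with the higher one.

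Ace, the converting enzyme, was bright in all groups. Its intensity in CBA/J lungs was 3812, 3195 and 2551 in sham mice, 4999, 3160 and 2061 at 12.5 Gy, and 4053, 4037 and 3322 at 15 Gy. In C57L/J lungs it was 4053, 4269 and 4819 in sham mice, 3602, 3589 and 4149 at 12.5 Gy, and 3307, 3840 and 1374 at 15 Gy. In C57BL/6J lungs it was 3152, 3327 and 3387 in sham mice, 3213, 2804 and 2675 at 12.5 Gy, and 3366, 2067 and 2488 at 15 Gy. Of 18 irradiated mice, 10 were below their strain's sham range and 3 above it, and the lowest values were single mice at 1374 and 2061.

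The change of Ace over the 3 strains was −0.20 ± 0.15 log2 in irradiated against sham lungs (95% interval −0.52 to 0.12; limma, adjusted p = 0.436). All 3 C57L/J mice given 15 Gy were below the C57L/J sham range, as 16.7% of genes were apart in that comparison, and the change there was −0.75 ± 0.41 log2, which did not pass, and −0.29 log2 without replicate 3 at 15 Gy. Both of the lowest Ace values, C57L/J 15 Gy replicate 3 and CBA/J 12.5 Gy replicate 3, were on arrays where the skeletal muscle list stood 7.59 and 8.51 log2 above the median array, and a list of thyroid and lymph node genes 9.97 and 5.54. Without the 9 arrays with muscle transcripts the change over the 3 strains was 0.13 log2, in the other direction. CBA/J then kept only sham replicate 3 and 12.5 Gy replicate 1, and its changes were 0.97 log2 at 12.5 Gy and 0.57 at 15 Gy. In C57L/J the changes at these doses were −0.21 and −0.29 log2, and in C57BL/6J −0.30 and 0.03. In sham lungs Ace was 0.47 ± 0.18 log2 lower in CBA/J than in C57L/J (adjusted p = 0.291) and 0.41 ± 0.11 higher in C57L/J than in C57BL/6J (adjusted p = 0.391), and neither passed, although neither pair of groups overlapped (24.3% and 15.1% of all genes). Without the CBA/J sham arrays with muscle transcripts the CBA/J against C57L/J difference was −0.78 log2, with CBA/J sham replicate 3 alone. A second Ace probe set gave 0.05 ± 0.27 log2, higher in CBA/J, for the first of these differences and 0.19 ± 0.20 for the other.

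Enpep encodes aminopeptidase A, which removes the first residue of angiotensin II. Over 9 mice each its lowest, median and highest intensities were 4070, 8366 and 8996 in CBA/J, 4040, 7509 and 8920 in C57L/J, and 6299, 8557 and 10188 in C57BL/6J. Of the 6 members it varied least between the groups, with a range of group means of 0.51 log2 and a within-group SD of 0.31 log2. The change was −0.05 ± 0.12 log2 in irradiated against sham lungs (95% interval −0.31 to 0.20; limma, adjusted p = 0.831), and 0.17 log2 without the 9 arrays with muscle transcripts (adjusted p = 0.291). The values of 4040 and 4070 were on the same 2 arrays as the lowest Ace values. In sham lungs the Enpep values of CBA/J (8969, 8861 and 8121) were all above those of C57L/J (7509, 7943 and 7916), a difference that did not pass. Of all genes, 24.3% did not overlap there.

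Agtr1a encodes the main type 1 angiotensin II receptor of the mouse. In CBA/J lungs its intensity was 692, 654 and 462 in sham mice, 817, 739 and 369 at 12.5 Gy, and 1049, 895 and 757 at 15 Gy. C57L/J mice had 657, 531 and 475 after sham exposure, 456, 378 and 497 at 12.5 Gy, and 612, 491 and 337 at 15 Gy. C57BL/6J mice had 547, 478 and 757 after sham exposure, 701, 799 and 675 at 12.5 Gy, and 603, 555 and 687 at 15 Gy. CBA/J mice given 15 Gy were the highest group, and all 3 were above the CBA/J sham range.

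That CBA/J change at 15 Gy was 0.59 ± 0.21 log2 and did not pass (limma, adjusted p = 0.281, where 1.02% of all genes passed and 24.5% did not overlap). Without the arrays with muscle transcripts it was 0.95 log2, against sham replicate 3 alone. Over the 3 strains Agtr1a changed by 0.08 ± 0.13 log2 after WTLI (95% interval −0.20 to 0.35; limma, adjusted p = 0.772). Over all doses the Agtr1a level was higher in CBA/J than in C57L/J by 0.50 ± 0.15 log2 (95% interval 0.18 to 0.82; limma, adjusted p = 0.0377), where 11.2% of all genes passed, and it was the only member of 6 to pass. The median intensity was 739 in CBA/J, 491 in C57L/J and 675 in C57BL/6J. The difference of C57L/J from C57BL/6J was −0.40 ± 0.15 log2 (adjusted p = 0.146, with 5.4% of all genes passing) and that of CBA/J from C57BL/6J 0.10 ± 0.15 (adjusted p = 0.732, with 13.3%). The CBA/J against C57L/J call was lost without any 1 of 12 of the 27 arrays, namely sham replicates 2 and 3, 12.5 Gy replicates 1 and 2, and 15 Gy replicates 2 and 3 of C57L/J, and replicates 1 and 2 at each dose of CBA/J (limma, adjusted p 0.0519 to 0.0798). It was also lost without the 9 arrays with muscle transcripts (0.45 log2, adjusted p = 0.12).

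Agtr2 encodes the type 2 receptor, which is expressed widely in the fetus and in few adult cells. In CBA/J lungs its intensity was 10.9, 17.1 and 14.4 in sham mice, 27.1, 20.1 and 3.96 at 12.5 Gy, and 37.5, 7.37 and 20.3 at 15 Gy. In C57L/J lungs it was 15.9, 9.17 and 17.9 in sham mice, 1.5, 0.66 and 1.85 at 12.5 Gy, and 9.96, 24.1 and 21.9 at 15 Gy. In C57BL/6J lungs it was 7.46, 1.98 and 4.23 in sham mice, 13.1, 24.9 and 24.9 at 12.5 Gy, and 18.4, 17.0 and 32.3 at 15 Gy. The C57L/J mice given 12.5 Gy were all below their sham mice, and the irradiated C57BL/6J mice were all above theirs, while only 2 of the 27 values were above 32.

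In C57L/J lungs at 12.5 Gy Agtr2 fell by 3.29 ± 0.35 on the log2 scale against sham, and it was the only member of 6 to pass in a comparison within a strain (limma, adjusted p = 0.0405, where 0.511% of all genes passed). With the floor of 32 the change was 0, since all 6 values were below it. The call was lost when any 1 of the 6 mice was left out (−3.59 to −3.05 log2; limma, adjusted p 0.112 to 0.171) and with mice paired by replicate number (adjusted p = 0.191). In C57L/J mice given 15 Gy the change from sham was 0.33 log2. Of all genes, 21.1% did not overlap between 12.5 Gy and sham in C57L/J, 18.1% between 12.5 Gy and sham in C57BL/6J, and 20.8% between 15 Gy and sham in C57BL/6J. In C57BL/6J lungs the changes were 2.34 ± 0.54 log2 at 12.5 Gy and 2.44 ± 0.53 at 15 Gy, and neither passed (limma, adjusted p = 0.201 for both, where 0.528% and 0.066% of all genes passed). With the floor of 32 they were 0 and 0.004 log2. Without the arrays with muscle transcripts they were 2.65 and 2.21 log2, from replicate 3 alone at 12.5 Gy and replicate 1 alone at 15 Gy. The response of C57L/J differed from that of C57BL/6J by −3.87 ± 0.79 log2 over both doses (limma, adjusted p = 0.415), where no gene passed (0.0%) and Agtr2 was among the 1.15% with an unadjusted p under 0.01. This difference too was 0 with the floor of 32. Over all doses Agtr2 was 1.08 ± 0.37 log2 higher in CBA/J than in C57L/J and did not pass (limma, adjusted p = 0.0707), but passed without CBA/J 12.5 Gy replicate 3 (0.00752) or CBA/J 15 Gy replicate 2 (0.025). With the floor of 32 and all arrays this strain difference was 0.03 log2.

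Mas1 encodes the Mas receptor and was close to background. In CBA/J lungs its intensity was 37.6, 31.7 and 35.1 in sham mice, 35.6, 45.5 and 49.8 at 12.5 Gy, and 62.3, 39.4 and 49.6 at 15 Gy. In C57L/J lungs it was 73.7, 49.5 and 49.1 in sham mice, 53.6, 31.8 and 44.7 at 12.5 Gy, and 50.4, 56.9 and 56.5 at 15 Gy. In C57BL/6J lungs it was 51.2, 49.5 and 54.9 in sham mice, 37.1, 24.8 and 24.7 at 12.5 Gy, and 49.4, 43.1 and 55.8 at 15 Gy. The 12.5 Gy group of C57BL/6J lay below both its sham and its 15 Gy group, and the 15 Gy group of CBA/J lay above its sham group. Of all genes, 18.1% did not overlap between 12.5 Gy and sham in C57BL/6J, 6.93% between 15 and 12.5 Gy in C57BL/6J, and 24.5% between 15 Gy and sham in CBA/J.

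Neither of these passed. The Mas1 change was −0.87 ± 0.20 log2 at 12.5 Gy in C57BL/6J (limma, adjusted p = 0.197) and 0.51 ± 0.20 at 15 Gy in CBA/J (adjusted p = 0.298), and in the fit over all 27 arrays the C57BL/6J change passed (adjusted p = 0.0344). Without the arrays with muscle transcripts the changes were −1.07 and 0.50 log2, with only replicate 3 left in C57BL/6J at 12.5 Gy and in CBA/J sham. Over the 3 strains Mas1 was 0.32 ± 0.12 log2 lower at 12.5 Gy than in sham lungs (adjusted p = 0.114) and 0.45 ± 0.12 log2 higher at 15 than at 12.5 Gy (limma, adjusted p = 0.999). The response of CBA/J differed from that of C57BL/6J by 0.89 ± 0.26 log2 (limma, adjusted p = 0.6), where no gene passed (0.0%) and Mas1 and Agtr2 were among the 1.42% with an unadjusted p under 0.01. In sham lungs Mas1 was 0.70 ± 0.20 log2 lower in CBA/J than in C57L/J (adjusted p = 0.188) and 0.58 ± 0.12 lower than in C57BL/6J (adjusted p = 0.139), and without the arrays with muscle transcripts the differences were −0.68 and −0.56 log2.

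Between strains, 1 of 6 members passed in CBA/J against C57L/J sham lungs (Agt), against 1.62% of all genes, and 1 of 6 in the same pair over all doses (Agtr1a), against 11.2%. In CBA/J against C57BL/6J sham lungs 0 of 6 passed, where 1.18% of all genes did and 17.6% did not overlap, Agtr2 and Mas1 among them. With an unadjusted p under 0.01 were Agt in CBA/J against C57L/J sham lungs (6.05% of genes), Mas1 in CBA/J against C57BL/6J (4.47%) and Agt in C57L/J against C57BL/6J (2.64%). Over all doses they were Agtr1a and Agtr2 in CBA/J against C57L/J (13.3%), none of 6 in CBA/J against C57BL/6J (15.1%) and Agt in C57L/J against C57BL/6J (9.36%). In the test of any strain by dose interaction 0 of 6 passed, as of all genes (0.0%), and Agtr2 was among the 1.43% with an unadjusted p under 0.01 (limma, adjusted p = 0.278). The response of CBA/J against that of C57L/J had 0 of 6 members under 0.01, against 1.13% of genes.

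**Figure D3:**
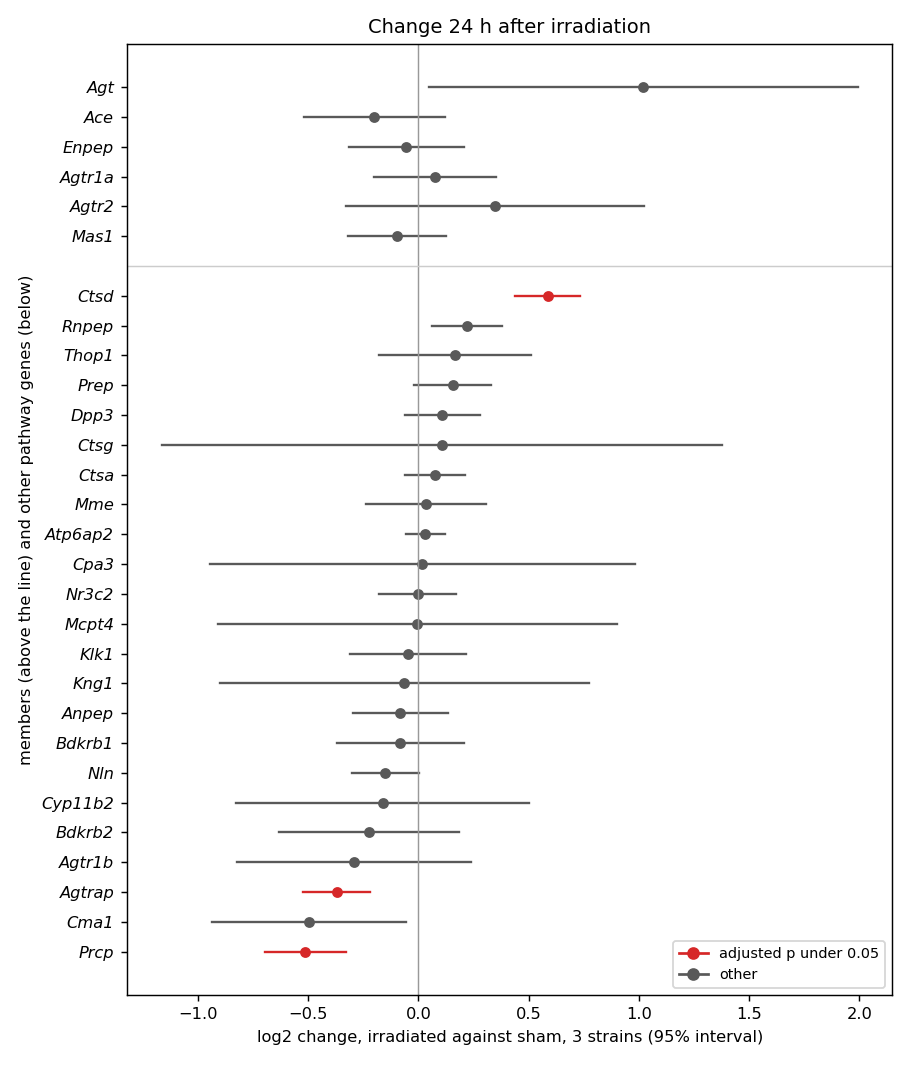
Log2 change in irradiated against sham lungs over the 3 strains (horizontal axis, points with 95% intervals) of the 6 measured members, above the line, and of 23 other genes of the pathway, below it, with red for adjusted p under 0.05. The member with the highest change is Agt at 1.02, with an interval of 0.05 to 1.99, and the red points are Ctsd at 0.59, Prcp at −0.51 and Agtrap at −0.37.

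A list of 27 other genes that form, break down or answer to angiotensins and kinins was examined beside the members, of which 23 were measured. After WTLI 3 of the 23 passed over the 3 strains, 1 higher and 2 lower, where 14.3% of all genes passed. The median change of the 23 was −0.00 log2. Cathepsin D (Ctsd), a lysosomal protease of the same enzyme family as renin, rose, and prolylcarboxypeptidase (Prcp), which removes the last residue of angiotensin II, and the receptor-associated protein Agtrap, which binds the type 1 receptor and favours its internalization, fell.

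Ctsd had intensities of 4085, 4024 and 3529 in CBA/J sham mice, 5889, 6452 and 5126 at 12.5 Gy, and 5568, 6101 and 5584 at 15 Gy. In C57L/J lungs they were 3514, 4042 and 4387 in sham mice, 5327, 4671 and 5267 at 12.5 Gy, and 5401, 5297 and 6170 at 15 Gy. In C57BL/6J lungs they were 3611, 3208 and 3814 in sham mice, 5459, 5527 and 5271 at 12.5 Gy, and 8552, 6013 and 5427 at 15 Gy. All 18 irradiated mice were above the sham range of their strain. The change was 0.59 ± 0.07 log2 (limma, adjusted p = 7.59e-06), with 0.52 ± 0.08 at 12.5 Gy (adjusted p = 0.000232) and 0.65 ± 0.08 at 15 Gy (adjusted p = 2.09e-05). It was 0.68 log2 without the arrays with muscle transcripts (adjusted p = 0.000373).

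Prcp had intensities of 647, 593 and 510.1 in CBA/J sham mice, 442, 469 and 396 at 12.5 Gy, and 397, 551 and 469 at 15 Gy. C57L/J mice had 806, 819.8 and 1037 after sham exposure, 584, 638 and 671 at 12.5 Gy, and 669, 633 and 522 at 15 Gy. C57BL/6J mice had 822, 1201 and 869.9 after sham exposure, 561, 613 and 479 at 12.5 Gy, and 799, 679 and 527 at 15 Gy. Of 18 irradiated mice, 17 were below the sham range of their strain, and the one exception was a CBA/J mouse given 15 Gy. Prcp fell by 0.51 ± 0.09 on the log2 scale (limma, adjusted p = 0.000403), and its other 3 probe sets gave −0.39 ± 0.10, −0.47 ± 0.15 and −0.31 ± 0.12. The change was −0.57 ± 0.10 at 12.5 Gy (adjusted p = 0.00091) and −0.46 ± 0.10 at 15 Gy (adjusted p = 0.00489). Without the arrays with muscle transcripts the change was −0.42 log2 over both doses (adjusted p = 0.0491), and the calls were lost at 12.5 Gy (−0.56 log2, adjusted p = 0.0529) and at 15 Gy (−0.27 log2, adjusted p = 0.256).

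Agtrap had intensities of 468, 503 and 496 in CBA/J sham mice, 411, 351 and 329.6 at 12.5 Gy, and 273, 424 and 352 at 15 Gy. C57L/J mice had 445, 457 and 417 after sham exposure, 358, 456 and 408 at 12.5 Gy, and 288, 349 and 269 at 15 Gy. C57BL/6J mice had 575, 727 and 721 after sham exposure, 562, 554 and 529.6 at 12.5 Gy, and 562, 488 and 552 at 15 Gy. Of 18 irradiated mice 17 were below the sham range of their strain. Agtrap fell by 0.37 ± 0.07 on the log2 scale (limma, adjusted p = 0.00144), and by 0.33 (adjusted p = 0.105) without the 9 arrays with muscle transcripts, while its other probe set gave 0.07 ± 0.12. Its change was −0.28 ± 0.08 at 12.5 Gy (adjusted p = 0.0408) and −0.46 ± 0.08 at 15 Gy (adjusted p = 0.000995), and without those 9 arrays −0.24 (adjusted p = 0.395) and −0.42 (adjusted p = 0.0846). The 12.5 Gy call was lost without any 1 of 16 of the 27 arrays, with adjusted p from 0.0511 to 0.0869, and kept without C57L/J 12.5 Gy replicate 2, CBA/J 12.5 Gy replicate 1, CBA/J 15 Gy replicates 1 and 2, C57BL/6J sham replicate 1 or any 15 Gy array of C57L/J and C57BL/6J. Aminopeptidase B (Rnpep) was 0.22 ± 0.08 log2 higher after WTLI and did not pass (limma, adjusted p = 0.0588).

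**Figure D4:**
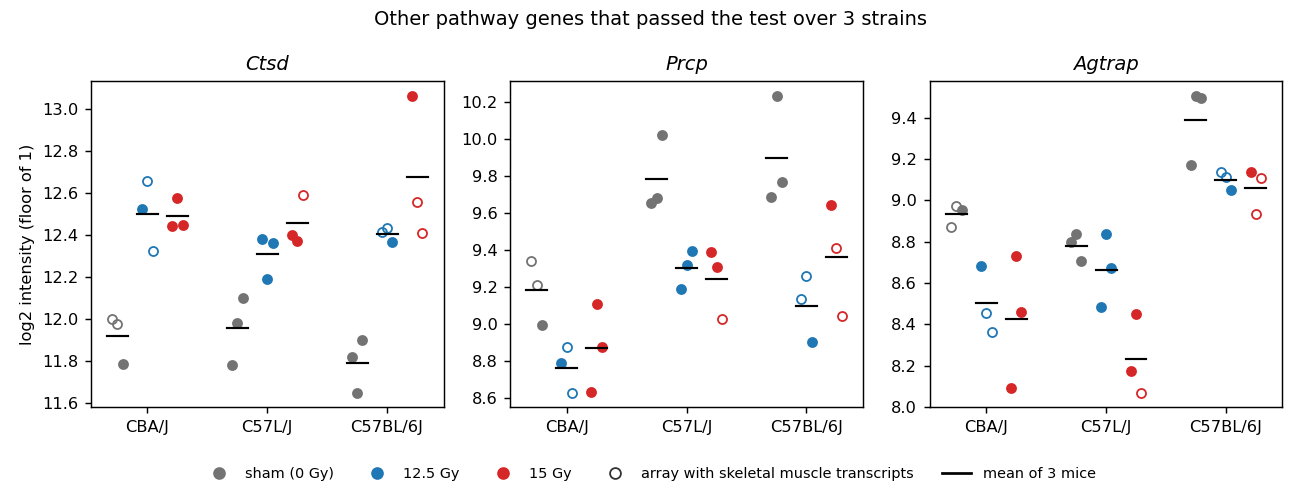
Log2 intensity (vertical axis) of Ctsd, Prcp and Agtrap by strain and dose (horizontal axis), 1 point per mouse with a bar for the mean of 3, open points for arrays with skeletal muscle transcripts. All 18 irradiated mice lie above their strain's sham range for Ctsd, and 17 of 18 lie below it for Prcp and for Agtrap.

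The strains also differed in these other pathway genes. Over all doses 5 of 23 passed between CBA/J and C57BL/6J (13.3% of all genes), 4 of 23 between CBA/J and C57L/J (11.2%) and 2 of 23 between C57L/J and C57BL/6J (5.4%). Neurolysin (Nln), a peptidase that cuts bradykinin and angiotensins, had intensities of 206 to 277 in CBA/J, 483 to 638 in C57L/J and 381 to 632 in C57BL/6J, so that the 9 CBA/J mice lay below all others. Its difference was −1.18 ± 0.08 log2 for CBA/J against C57L/J (limma, adjusted p = 1.82e-09) and −1.05 ± 0.08 for CBA/J against C57BL/6J (adjusted p = 1.15e-08), but a second Nln probe set gave −0.03 and 0.03. The bradykinin receptor Bdkrb2 had a median intensity of 184 in CBA/J, 343 in C57L/J and 76.9 in C57BL/6J, with differences of 1.73 ± 0.23 log2 for C57L/J against C57BL/6J (adjusted p = 3.45e-05) and 1.17 ± 0.23 for CBA/J against C57BL/6J (adjusted p = 0.0011). A second Bdkrb2 probe set gave 1.25 ± 0.46 and, in the other direction, −0.29 ± 0.46 for these 2 differences. Without the arrays with muscle transcripts the Nln and Bdkrb2 calls were kept. Of the genes that changed after WTLI, Agtrap was lower than in C57BL/6J by 0.56 ± 0.08 log2 in CBA/J (adjusted p = 6.96e-05) and by 0.62 ± 0.08 in C57L/J (adjusted p = 5.12e-05), and Prcp was lower in CBA/J by 0.50 ± 0.10 than in C57L/J (adjusted p = 0.00175) and by 0.51 ± 0.10 than in C57BL/6J (adjusted p = 0.00135). Of these the Agtrap call in CBA/J was lost without the 9 arrays (−0.50 log2, adjusted p = 0.0754).

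Among the remaining genes, the mast cell chymase Mcpt4, a counterpart of the human chymase that forms angiotensin II, was higher in CBA/J than in C57L/J by 1.81 ± 0.50 log2 over all doses (limma, adjusted p = 0.0211). Its mean log2 intensity in CBA/J and C57L/J was 6.99 and 4.31 in sham lungs, 7.24 and 4.25 at 12.5 Gy, and 5.67 and 5.91 at 15 Gy. The CBA/J mean was thus not the higher one at 15 Gy. That C57L/J mean held 1 mouse at an intensity of 185, the highest of the strain, where the median over its 9 mice was 34.1. The mean of 6 mast cell genes, Mcpt4 among them, was 7.52, 7.21 and 6.15 in CBA/J and 6.61, 5.99 and 6.57 in C57L/J over the same doses. The CBA/J mean of this list too was not the higher one at 15 Gy, where 1 C57L/J mouse reached 7.54. The median of the mice there was 6.31 in CBA/J and 6.23 in C57L/J, so the order of the strains at 15 Gy was not settled. In C57L/J, however, the list mean was not above sham at 15 Gy, whereas the Mcpt4 mean was. The part of mast cell number was not tested. Without the arrays with muscle transcripts the Mcpt4 call was lost (2.02 log2, adjusted p = 0.105). The prorenin receptor Atp6ap2 was higher in CBA/J than in C57L/J by 0.20 ± 0.05 log2 (adjusted p = 0.0101, and 0.0657 without those arrays), and its difference of C57L/J from C57BL/6J, −0.15 ± 0.05 log2, did not pass (adjusted p = 0.098). Aminopeptidase N (Anpep), which trims angiotensin III, was lower in CBA/J than in C57BL/6J by 0.37 ± 0.12 log2 (adjusted p = 0.047, and 0.344 without those arrays), a call lost without any 1 of 18 of the 27 arrays (adjusted p 0.0516 to 0.0999) and kept without any 15 Gy array of C57L/J, CBA/J 12.5 Gy replicate 3, CBA/J 15 Gy replicates 2 and 3, C57BL/6J sham replicate 2, or replicate 3 of C57BL/6J at 12.5 or 15 Gy.

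The 3 bright members varied together from mouse to mouse. Over the 27 arrays, after subtracting the mean of each of the 9 groups, Pearson's r was 0.80 between Ace and Enpep, 0.70 between Agtr1a and Enpep and 0.70 between Ace and Agtr1a. These r are descriptions over arrays that share their scaling, and several hold tissue other than lung. The r of the values themselves was 0.53, 0.57 and 0.41 for the same pairs. Of the pairs with a dim member, the highest r was between Agtr1a and Agtr2, 0.49 over the values and 0.44 over the deviations.

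Of the 16 marker lists, Ace followed the endothelial genes most closely in its values. Its r with the mean of 7 endothelial genes was 0.87 over the values and 0.93 over the deviations, and with the skeletal muscle list it was −0.73 and −0.75. Over the deviations its r was as high with the capillary genes, 0.94, and the type I cell genes, 0.93. Enpep had r of 0.64 and 0.73 with type I cell genes and −0.54 and −0.80 with the muscle list, and over the deviations its r with the capillary genes was 0.80. Agtr1a had r of 0.65 and 0.55 with type I cell genes and −0.15 and −0.38 with the muscle list, and over the deviations its r was 0.70 with capillary, 0.62 with alveolar macrophage and 0.61 with endothelial genes. With the thyroid and lymph node list r over values and deviations was −0.79 and −0.84 for Ace, −0.62 and −0.76 for Enpep, and −0.505 and −0.70 for Agtr1a. Agt had its highest r over the values with smooth muscle genes, 0.45, and its r with the hepatocyte list was −0.06.

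The genes whose values were most like those of Ace over the 27 arrays were Slco2a1 (r = 0.954), Foxf1 (0.924), Clic3 (0.922), Smad6 (0.92) and Cldn18 (0.904). After the group means were subtracted they were Wwc2 (0.962), Slco2a1 (0.96), Prdm1 (0.958), Hey1 (0.957) and Aard (0.953). For Enpep they were Snx25 (0.946), Plscr4 (0.918), Flvcr2 (0.896), Mamdc2 (0.89) and Fam221a (0.89) in the values, and Dram1 (0.971), Ogn (0.957), Snx25 (0.955), Gucy1b1 (0.955) and Fam221a (0.952) in the deviations. For Agtr1a they were Lamc1 (0.863), Btbd3 (0.856), Pawr (0.845), Mosmo (0.832) and Fmo2 (0.822) in the values, and Gucy1a1 (0.878), Carmil1 (0.873), Lamc1 (0.858), Myzap (0.857) and Marcks (0.854) in the deviations.

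**Figure D5:**
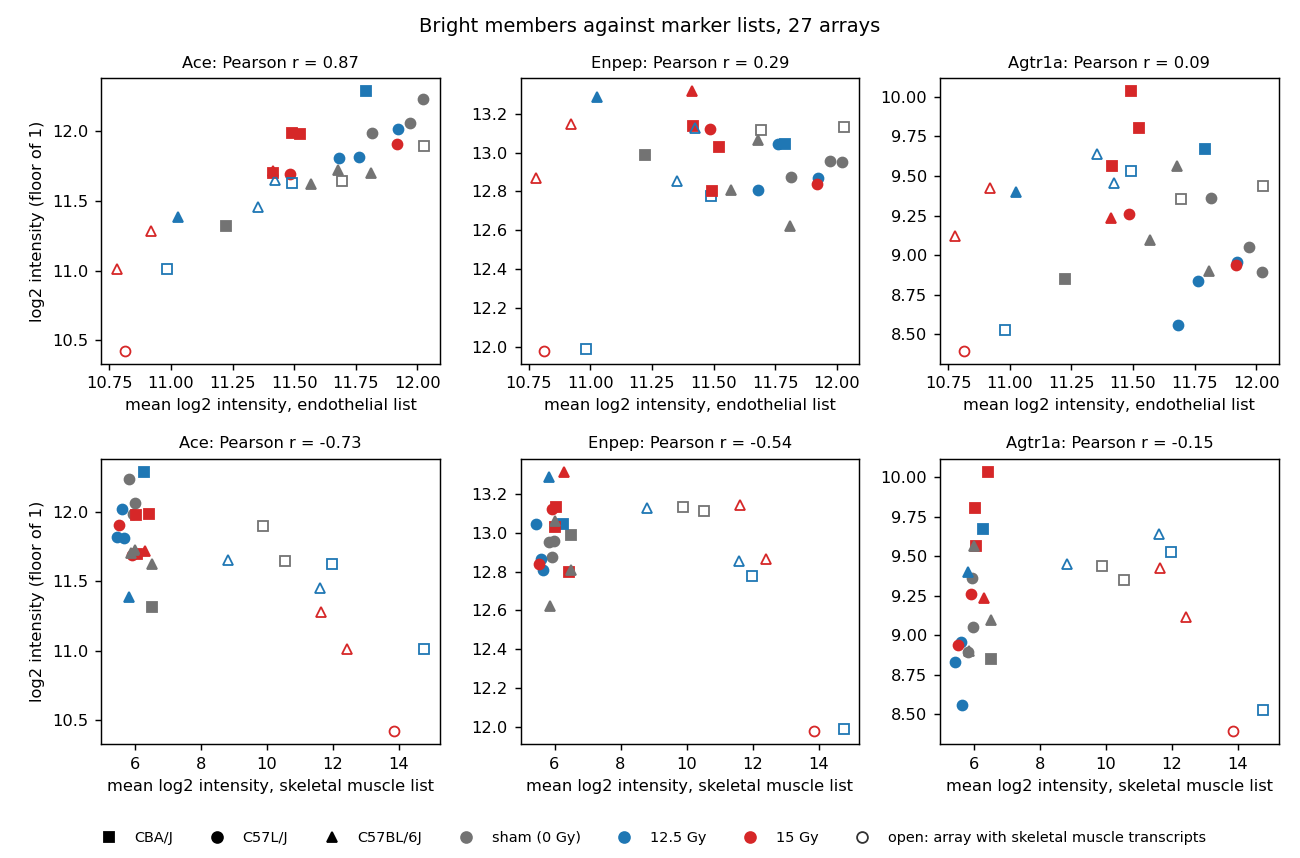
Log2 intensity of Ace, Enpep and Agtr1a (vertical axes) against the mean log2 intensity of endothelial genes and of skeletal muscle genes (horizontal axes), 1 point for each of 27 arrays. Pearson's r with the endothelial list is 0.87 for Ace, 0.29 for Enpep and 0.09 for Agtr1a, and with the muscle list it is −0.73, −0.54 and −0.15.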

How the data were processed

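Total RNA was labelled and hybridized per mouse, and the authors made the deposited linear intensities with Affymetrix Expression Console version 1.1, scaled to a 2% trimmed mean of 500. The study names quartile normalization, and how probes were summarized is not given in these sources. Intensities were floored at 1 and taken to log2. Of 45101 probe sets, 34958 had 1 gene symbol, 932 several and 9211 none, and the brightest probe set by mean over the 27 arrays stood for each of 18194 genes. Comparisons of 2 groups were fitted on those arrays alone, and comparisons over strains or doses on all 27 arrays as 9 group means, with limma 3.58.1 in R 4.3.3 and Benjamini-Hochberg adjustment over all genes (adjusted p under 0.05). The members and lists were chosen with earlier results of these data known. All members were named, other pathway genes where they passed in any comparison or had p under 0.01 over strains or doses, and, for the 3 bright members, the 5 genes of highest r (mean log2 of at least 6). The alternatives were a floor of 32, a minimum mean log2 of 6, quantile normalization, median centring, array weights, an intensity trend with robust prior, other probe set rules, replicate number as a block, 1 fit over all arrays, the methods' random variance t test, leaving out each array, and dropping the 9 arrays on which skeletal muscle genes were high. The scripts were tested on simulated data, with each gene's spread pooled over the 9 groups and not taken from the compared groups alone. In C57L/J at 12.5 Gy against sham, 54% of genes changed by 2 log2 and 5% of those changed by 1 log2 passed. Over the 3 strains 95% and 76% did. In CBA/J at 12.5 Gy against sham the deviations of same-numbered mice correlated (0.19, 0.46 and 0.24), a hint of pairing from the data alone. The number of arrays limits the precision.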

Additional observations from a re-analysis of the deposited data

Results flagged for a closer look

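The measured Agtr2 values, all below an intensity of 32 in these groups, lay on opposite sides of sham at 12.5 Gy in the 3 C57L/J lungs and the 3 C57BL/6J lungs: the log2 change against sham was −3.29 in C57L/J lungs and 2.34 in C57BL/6J lungs, and in each strain every mouse given 12.5 Gy was beyond the sham range. Of all genes, 21.1% did not overlap sham at this dose in C57L/J and 18.1% in C57BL/6J. The response over both doses was lower by 3.87 ± 0.79 log2 in C57L/J than in C57BL/6J, with an adjusted p = 0.415 over all genes (limma). With a floor of 32 this difference was 0, so no direction above background was measured.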

How the results depend on the processing

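Leaving aside the omission of 1 array, 1623 alternatives kept a single gene on its side of the threshold or a correlation in place. Single genes lost a call in 41 cases, gained one in 20 and lost one with a change of sign in 1, and 11 correlations moved. Changes called in neither setting took the other sign in 65 further cases, Ace and Enpep after WTLI without the muscle arrays among them. The call lost with a change of sign was Bdkrb2 in CBA/J against C57BL/6J over all doses, at −0.29 log2 with its most variable probe set. In C57L/J at 12.5 Gy against sham, the 1 member called became 0 with a floor of 32, a trend and robust prior, the most variable probe set, the mean of probe sets, a minimum mean log2 of 6 and the replicate block. In CBA/J against C57L/J sham lungs, 1 became 0 with a floor of 32, 1 fit over all arrays, a trend and robust prior, a minimum mean log2 of 6 and without the arrays with muscle transcripts (an alternative whose single fit over the arrays kept was chosen after seeing the data). In CBA/J against C57L/J over all doses, 1 became 3 with array weights, 0 with quantile normalization (Agtr1a adjusted p = 0.052) or median centring (0.0554), and 2 at unadjusted p under 0.01.

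Array weights gave 1 where 0 had passed in irradiated and in 12.5 Gy against sham lungs over the 3 strains (Agt, adjusted p = 0.0412 and 0.0133) and in C57L/J against C57BL/6J over all doses (Agt, 0.0114). This last count was also 1 with quantile normalization (Mas1, adjusted p = 0.0291), without the muscle arrays (Agt) and at unadjusted p under 0.01. In C57BL/6J at 12.5 Gy, 0 became 1 with 1 fit over all arrays and 2 at unadjusted p under 0.01. At that unadjusted threshold 0 also became 1 in C57L/J at 15 against 12.5 Gy, C57BL/6J at 15 Gy, 12.5 Gy over the 3 strains, C57L/J and CBA/J against C57BL/6J sham lungs, the response of C57L/J against C57BL/6J and the strain by dose interaction, and 2 in 15 against 12.5 Gy over the 3 strains and the response of CBA/J against C57BL/6J.

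The other pathway genes called became 5 in place of 3 in irradiated against sham lungs with array weights, 1 in place of 3 at 12.5 Gy with the most variable probe set, and 1 in place of 2 in C57L/J against C57BL/6J with that probe set. In CBA/J against C57BL/6J 5 became 9 with array weights and 3 with the mean of probe sets or without the muscle arrays, and in CBA/J against C57L/J 4 became 10 with array weights and 2 without the muscle arrays.

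Leaving out 1 array at a time, the members called ranged from 0 to 0 in C57L/J at 12.5 Gy, from 0 to 2 in CBA/J against C57L/J over all doses, and from 0 to 1 in CBA/J against C57L/J sham lungs, in C57L/J against C57BL/6J over all doses, and at 12.5 and at 15 Gy over the 3 strains. Agtr2 at 15 Gy passed without CBA/J 12.5 Gy replicate 3 (adjusted p = 0.0314) or CBA/J 15 Gy replicate 2 (0.0316). With the floor of 32 and all arrays that change was 0.03 log2. Agt at 12.5 Gy passed without C57L/J 15 Gy replicate 3 (0.0485) or CBA/J 12.5 Gy replicate 1 (0.0155). The other pathway genes called ranged from 3 to 4 in irradiated and in 15 Gy against sham, 2 to 3 at 12.5 Gy and in C57L/J against C57BL/6J, and 4 to 6 in both CBA/J comparisons. Same-numbered mice deviated together in CBA/J at 12.5 Gy against sham alone, where the replicate block left the members called at 0. In the other comparisons the lowest correlation was −0.31 to 0.09 and no label gives a common litter or day, so there the block, under which Agtr2 in C57L/J had an adjusted p of 0.191, does not stand for a pairing. Signal limits Agt, Agtr2 and Mas1, for which changes below an intensity of 32 were not measurable.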
